A study of Mus musculus with 20 samples.

Results

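The genes that encode hnRNPs, SR proteins and the core proteins of the spliceosome were followed in the axons and in the cell bodies with dendrites of cultured mouse motoneurons, with and without knockdown of Tdp-43. The members were all protein-coding genes whose symbol starts with Hnrnp, Srsf, U2af, Sf3, Snrp or Prpf, which gave 67 of 39174 gene rows. There were 20 Hnrnp, 11 Srsf, 3 U2af, 8 Sf3, 12 Snrp and 13 Prpf genes. No measured value entered this choice, and splicing factors with other symbols, such as Snrnp70, Snrnp200 and Eftud2, are described separately.

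Motoneurons came from spinal cords of CD-1 mouse embryos, were enriched on dishes coated with an antibody against p75, and grew for a week in microfluidic chambers with CNTF and BDNF. In these chambers axons grow into a compartment of their own, so that axonal RNA and RNA of the somatodendritic side were collected apart. Control motoneurons carried an empty lentiviral vector and gave 4 axonal and 4 somatodendritic libraries. Tdp-43 knockdown motoneurons carried a lentivirus that expresses an shRNA against Tdp-43 and gave 6 axonal and 6 somatodendritic libraries. All cells were thus from wildtype embryos and had been transduced, and 1 shRNA alone was used. The control libraries first appeared in previous work. According to the paper's methods they were handled side by side with the knockdown libraries, but no library carries a date, so a difference between runs and the knockdown cannot be told apart. The labels name no separate cultures, so that p-values measure the spread between these libraries, which may be partly technical. The RNA was amplified by PCR without selection for a type of RNA, and each value is an FPKM (fragments scaled to exon length and to the number of mapped fragments), which is per length and allows genes to be compared with each other.

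Splicing removes introns in steps. hnRNPs coat the new transcript and often block splice sites, while SR proteins bind exons and recruit the machinery. U2AF finds the 3′ end of the intron, the SF3 proteins hold the U2 particle on the branch point, the Sm proteins (most Snrp genes) form the ring around each spliceosomal snRNA, and PRPF proteins build and drive the tri-snRNP. Tdp-43 itself is an hnRNP-like protein that binds UG-rich RNA, and it is known to interact with hnRNP A1 and hnRNP A2/B1. Many SR protein and hnRNP genes limit their own level through exons that send the transcript to nonsense-mediated decay.

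The knockdown was made with a hairpin whose target lies at chr4:148618697-148618717 of GRCm38 on the minus strand, within coding sequence of 20 of the 21 annotated Tardbp transcripts that hold it, in exon 6 of 8 of Tardbp-201. It is shown because the values below rest on it. In the target, capitals mark the 7 bases that pair with the seed of the guide strand, and in the guide strand they mark that seed (bases 2 to 8).
Tardbp target: gcataatagcaatAGACAGTt
guide strand: aACTGTCTattgctattatgc

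Tardbp, the gene of Tdp-43, was at 18.3 to 29.0 scaled FPKM in the somatodendritic control libraries and at 0 to 6.43 in the knockdown libraries, so that these groups were apart. In axonal libraries it was at 17.6 to 48.4 in controls and at 1.38 to 26.9 in knockdown. The library labelled axonal knockdown replicate 1, at 26.9, lay within the range of the axonal controls, and its label is not borne out by this gene. Scaled FPKM are the deposited values divided by 1 factor per library, a median of ratios that uses 4577 genes, each at 1 FPKM or more throughout the 20 libraries. Each fit took its factors from its own libraries.

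The libraries differed in depth and in the summed levels of cell type markers. Relative to the deepest library, depth was 0.530 to 1 in the 8 control libraries and 0.103 to 0.760 in the 12 knockdown libraries, as read from the intervals that accompany each FPKM. The median member rested on 7 to 16.4 implied fragments in a somatodendritic control library and on 0.408 to 17.98 in an axonal knockdown library. Neuron markers (Tubb3, Mapt, Map2, Nefl, Nefm and Stmn2) summed to 1350 to 2013 scaled FPKM in somatodendritic and 519 to 1217 in axonal libraries. Of the motoneuron markers, Chat, Isl2 and Mnx1 were listed at 0 in every library, and the 7 such genes in the files summed to at most 12.2 in any library. Markers of dividing cells (Mki67, Top2a, Ccnb1 and Cdk1) summed to 46.2 to 64.6 in somatodendritic control and 0.847 to 43.2 in somatodendritic knockdown libraries, and their axonal sums were 135 to 268 in controls and 19.1 to 267 after knockdown. In axons the medians of Cdk1 and Ccnb1 were 100.6 and 14.67 in controls and 41.78 and 3.315 after knockdown. Those of Mki67 and Top2a were 26.83 and 24.82 in controls and 27.46 and 25.15 after knockdown. Fibroblast markers (5 genes) summed to at most 10.7 in somatodendritic libraries and to 11.3 to 83.5 in axonal libraries, with Lum listed at 0 in all axonal libraries and Col1a1 at a median of 40.6 in axonal controls. Markers of astrocytes and radial glia (6 genes) summed to 251 to 309 in somatodendritic control and 165 to 269 in somatodendritic knockdown libraries, and to 93.8 to 584 and 17.3 to 582 in the axonal groups. The part of these other cells in the values below was not tested. In bulk RNA, fewer cells of a type and less RNA per cell cannot be told apart.

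Splicing genes were expressed well above the typical gene. The median member was at 22.0 scaled FPKM over the 20 libraries, against 7.29 for all 14019 genes with a mean of at least 1, and 59 of the 67 members were above that median. The levels ranged from 3.28 for U2af1, the small subunit of U2AF, to 184 for Hnrnpl, a regulator that binds CA-rich RNA. Over the 20 libraries Hnrnpl and Hnrnpk led, and in both somatodendritic groups Snrpn came next, at means of 117 in control and 110.4 in knockdown libraries. Hnrnpk, a poly(C)-binding protein, was at 60.1 to 215 and Hnrnpl at 129 to 302 over all libraries. Among SR protein genes Srsf2 led at a mean of 81.4, among Sm protein genes Snrpn at 80.1, among PRPF genes Prpf8 (the protein at the core of the spliceosome) at 60.8, and among SF3 genes Sf3b2 at 34.9.

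Over the 4 somatodendritic controls, the coefficient of variation had a median of 19.7% and was under 20% for 34 of the 67 members. It was lowest for Prpf8, which was at 40.8, 42.4, 45.8 and 45.6 scaled FPKM, and next lowest for Hnrnpu, a scaffold protein of the nucleus, which was at 45.3, 54.9, 52.2 and 47.9. It was at least 50% for 5 members, among them Prpf38b and the weakly expressed Snrpf, U2af1 and Prpf4, which had group means of 3.48 to 6.72. All 20 Hnrnp genes were above 0 in every library. Of the other 47 members, 18 were listed at 0 in at least 1 library, Snrpg in 7, Snrpf in 6 and U2af1 in 5. Members at 0 were most numerous in the shallowest library (axonal knockdown replicate 5, with 11) and none was at 0 in the 4 somatodendritic controls.

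**Figure D1:**
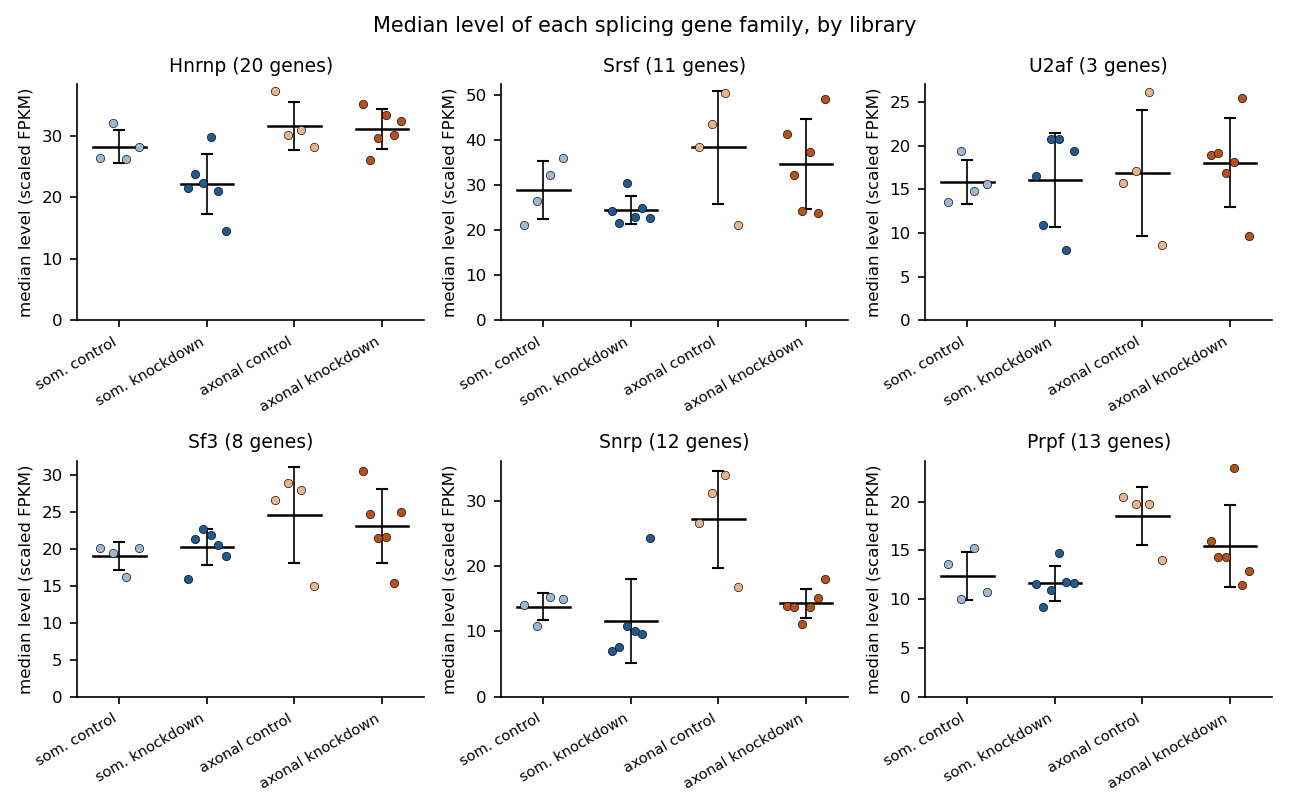
Each point is the median scaled FPKM (linear axis from 0) of the members of 1 family in 1 library, with the 4 groups along the horizontal axis; black lines are the group mean and SD over 4 control or 6 knockdown libraries. The Snrp panel shows axonal control libraries at 16.9 to 33.95 against 11.1 to 18.1 in axonal knockdown.

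The median Hnrnp gene was at 28.3 ± 2.75 (SD, n = 4) scaled FPKM in somatodendritic control libraries and at 22.2 ± 4.95 (SD, n = 6) in somatodendritic knockdown libraries, with overlapping ranges of 26.2 to 32.2 and 14.5 to 29.9. In axonal libraries it was at 31.7 ± 3.92 (n = 4) and 31.2 ± 3.23 (n = 6), which differ by less than the SD. The median Snrp gene was at 13.8 ± 2.03 and 11.6 ± 6.40 in the somatodendritic groups and at 27.2 ± 7.50 and 14.3 ± 2.27 in the axonal groups. For Srsf genes the axonal means were 38.4 ± 12.5 in control and 34.7 ± 9.98 in knockdown libraries, and for Sf3 genes the somatodendritic means were 19.0 ± 1.86 and 20.2 ± 2.47. The plot of family medians shows that the axonal control library 4 was the lowest of its group in the Hnrnp, Srsf, U2af, Sf3, Snrp and Prpf families. Knockdown minus control on the log2 scale, the axonal family medians differed by -0.01 for Hnrnp, -0.12 for Srsf, -0.10 for Sf3, -0.27 for Prpf and -0.86 for Snrp genes. In FPKM as deposited these values were 0.53, 0.41, 0.43, 0.25 and -0.33, so that Snrp alone among these 5 families was lower under both scales. U2af genes differed by 0.14 in axons, and by 0.65 in FPKM as deposited. In the somatodendritic compartment the medians differed by -0.36 for Hnrnp, -0.22 for Srsf and -0.36 for Snrp genes, and without scaling by -0.15, -0.0025 and -0.17. Without somatodendritic knockdown replicate 6, where the median Snrp gene was at 24.3 scaled FPKM against 7.03 to 10.8 in the other 5 knockdown libraries, the Snrp difference was -0.59. That of Srsf was -0.35 without somatodendritic control replicate 1 and -0.11 without somatodendritic control replicate 4. In axons, leaving out single libraries gave -0.06 to 0.06 for Hnrnp, -0.38 to 0.03 for Srsf, -0.31 to -0.0003 for Sf3 and -0.13 to 0.37 for U2af genes. The lowest of each came without axonal control replicate 4, and the highest without axonal control replicate 1 for Hnrnp, axonal control replicate 3 for Srsf and U2af, and axonal knockdown replicate 5 for Sf3. These family levels were compared without a test.

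The first comparison asked which splicing genes differ in cell bodies when Tdp-43 is reduced. In the somatodendritic compartment Hnrnpa1 and Srsf3 fell, and no member rose at an adjusted p under 0.05. These are 2 of the 67 members, or 2.99%, where 0.974% of all 13762 genes tested were called in either direction. At an unadjusted p under 0.05, 12 members were lower, where 9.22% of all genes were, and 5 were higher, where 4.59% of all genes were. The median member was lower by 0.26 on the log2 scale, the median of all genes tested by 0.13, and 51 of 67 members had a negative difference, as did 59.3% of all genes. The member median was -0.08 in FPKM as deposited, where that of all genes was 0.04. Without somatodendritic control replicate 3 or 4 no member was called, and without somatodendritic knockdown replicate 6 the count was 4. No member was called with the replicate number as a block. Markers of dividing cells were at a lower sum in all 6 knockdown libraries than in all 4 controls. The medians of Cdk1 were 29.4 in controls and 18.1 after knockdown, and those of Mki67 and Ccnb1 were lower too. Top2a went the other way, with medians of 7.98 and 8.22. The part of these markers in these results was not tested. All differences are on log2(scaled FPKM + 1), which understates the change of low genes.

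Hnrnpa1 (ENSMUSG00000046434, chr15:103240432-103246692, plus strand) encodes an abundant hnRNP that silences exons. Its level was 27.4, 31.4, 30.4 and 41.7 scaled FPKM in the 4 somatodendritic controls and 10.7 to 17.2 (median 12.7) in the 6 knockdown libraries. Every knockdown library was below every control. The log2 difference was -1.26 ± 0.21 (SE; limma, adjusted p = 0.0129). Without somatodendritic control replicate 3 the adjusted p was 0.0521, and without replicate 4 it was 0.059. In a fit of all 20 libraries it was 0.0926. Hnrnpa1 was also not called with the replicate number as a block. Of the 50-base stretches in its transcripts, 28.2% occur in 20 other annotated genes, so that fragments of its copies can count here.

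Srsf3 (ENSMUSG00000071172, chr17:29032628-29043373, plus strand) encodes the smallest SR protein, which acts in splicing and mRNA export. It was at 36.0, 26.5, 32.2 and 42.4 scaled FPKM in the somatodendritic controls and at 11.5 to 18.4 (median 17.1) in the knockdown libraries, again with no overlap. The log2 difference was -1.09 ± 0.22 (SE; limma, adjusted p = 0.0409). This call is close to the threshold, as the adjusted p ranged from 0.0419 to 0.152 when single libraries were left out and was under 0.05 in 1 of those 10 fits. Without the libraries of a relative depth under 0.5 it was 0.0536, while Hnrnpa1 was at 0.0122. In a fit of all 20 libraries it was 0.245 for Srsf3, which was also not called with the replicate number as a block.

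Hnrnpa2b1 (ENSMUSG00000004980, chr6:51460932-51469894, minus strand), the marker of this gene group, encodes a reader and transport factor of RNA and narrowly missed the adjusted threshold. It was at 75.7, 78.1, 59.95 and 67.3 scaled FPKM in the somatodendritic controls and at 22.7 to 44.1 (median 36.8) in knockdown libraries. All 6 knockdown libraries were below all 4 controls. The log2 difference was -1.05 ± 0.23 (SE; limma, adjusted p = 0.0513, unadjusted p = 0.000533). In limma the adjusted p was 0.0704 in FPKM as deposited, 0.0496 with quantile normalization and 0.101 after a correction for exonic length. It was under 0.05 in 1 of the 10 fits that left out a single library.

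Other members with lower values were Sm proteins, which assemble on snRNAs with the help of the SMN complex. Snrpg was at 9.99, 6.24, 14.8 and 11.6 scaled FPKM in the controls, and was listed at 0 in 4 of 6 knockdown libraries and at 2.201 and 5.49 in the other two. Its log2 difference was -2.88 ± 0.62 (SE; limma, adjusted p = 0.0509), but these levels stand for at most 3.996 implied fragments in any somatodendritic library. Snrpf went from 1.502 to 10.41 in the controls to 0 in 4 knockdown libraries and 1.12 and 3.58 in the rest (adjusted p = 0.102), on at most 5.04 implied fragments. Snrpd3 was at 32.4 to 68.6 in controls and at 6.71 to 30.6 in knockdown libraries, with no overlap and an adjusted p of 0.147. Without scaling the groups of both Snrpg and Snrpd3 overlapped, as the lowest control was at 6.48 and 36.4 FPKM and the highest knockdown library at 6.795 and 39.5. Over the 12 Snrp genes, 11 had a negative difference, with a median of -0.67.

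Further hnRNP and SR protein genes were lower at an unadjusted p alone. Hnrnpm differed by -0.90, Hnrnpr by -0.69, Hnrnpc by -0.63 and Hnrnpab by -0.35, with unadjusted p between 0.0237 and 0.0447 for these genes. Srsf2, which defines many exons and marks nuclear speckles, was at 66.5 to 104 scaled FPKM in controls and at 38.5 to 75.8 in knockdown libraries, with 4 of 6 knockdown libraries below all controls (log2 difference -0.62, unadjusted p = 0.0101). Srsf11 differed by -0.68. In all, 18 of the 20 Hnrnp and 8 of the 11 Srsf genes had negative differences, with medians of -0.34 and -0.25, which were -0.14 and -0.05 in FPKM as deposited. There Hnrnpab differed by -0.14 and Srsf2 by -0.41.

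The 5 members with higher values came from 4 families. Hnrnpl was at 144, 134, 171 and 138 scaled FPKM in the controls and at 163 to 250 (median 209) in knockdown libraries, where 5 of 6 were above every control (log2 difference 0.51 ± 0.14 SE; limma, adjusted p = 0.105). Prpf8 was at 40.8 to 45.8 in controls and at 44.5 to 87.2 in knockdown libraries, also with 5 of 6 above every control. Prpf3, a tri-snRNP protein, differed by 0.82, Snrpa, which binds U1 snRNA, by 0.69, and Sf3a2, which helps U2 to join, by 0.60. The Sf3 family was the one with most members on the positive side, 5 of 8, at a median of 0.06. In FPKM as deposited, without scaling, the median of all genes was 0.04 in place of -0.13, Hnrnpl (adjusted p = 0.0407) and Prpf8 (adjusted p = 0.0448) passed, and Srsf3 did not (adjusted p = 0.0819). Groups of 5 members did not overlap in this compartment, namely Hnrnpa1, Srsf3, Hnrnpa2b1, Snrpg and Snrpd3, which is 7.46% of the members against 5.48% of all genes. Without scaling this held for 9 members, or 13.4%, against 6.2% of all genes. These were Hnrnpa1, Srsf3 and Hnrnpa2b1 on the lower side and Hnrnpl, Prpf8, Prpf3, Snrpa, Sf3a2 and Sf3a1 on the higher side, so that Snrpg and Snrpd3 were not among them.

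Other named members, among them some of the most abundant, had overlapping groups in all comparisons of scaled FPKM. Without scaling, the groups of Hnrnpk, Hnrnpd and Sf3b1 did not overlap between compartments in controls, those of Sf3b1 and U2af1l4 after axonal knockdown, and those of Sf3a1 after somatodendritic knockdown. Hnrnpk was at 151 to 215 (median 173) scaled FPKM in somatodendritic control and 112 to 209 (median 173) in knockdown libraries, and the log2 difference was -0.08 ± 0.18 (SE) there and -0.08 ± 0.35 in axons. Hnrnpd, which binds AU-rich RNA, differed by -0.52 ± 0.29 in cell bodies and 0.26 ± 0.37 in axons. In FPKM as deposited, the means of Hnrnpk in control and knockdown libraries were 191.6 and 212.1 in cell bodies and 96.8 and 143.5 in axons. Those of Hnrnpd were 105.6 and 92.2 in cell bodies and 59.4 and 101.2 in axons, so that these differences depend on the scaling. Snrpd2, an Sm protein, was at 61.2 to 84.6 and 49.6 to 76.6 in the somatodendritic groups (log2 difference -0.14 ± 0.16). Sf3b2 and Sf3b1, of the complex at the branch point, differed by 0.06 ± 0.17 and -0.02 ± 0.17 in cell bodies. The SR protein genes Srsf5 and Srsf1 differed by -0.29 ± 0.21 and -0.14 ± 0.32. U2af2, the large subunit of U2AF, differed by 0.09 ± 0.24, its partner U2af1l4 by -0.09 ± 0.32, Prpf40b by -0.15 ± 0.32 and Sf3a1 by 0.42 ± 0.22. U2af1 was at 2.41, 5.61, 4.99 and 0.898 in the somatodendritic controls and at 1.68, 2.21, 2.12, 2.12, 0 and 0 in the knockdown libraries. None of these 12 members passed at an unadjusted p under 0.05, and with 4 and 6 libraries such SEs still allow modest changes.

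**Figure D2:**
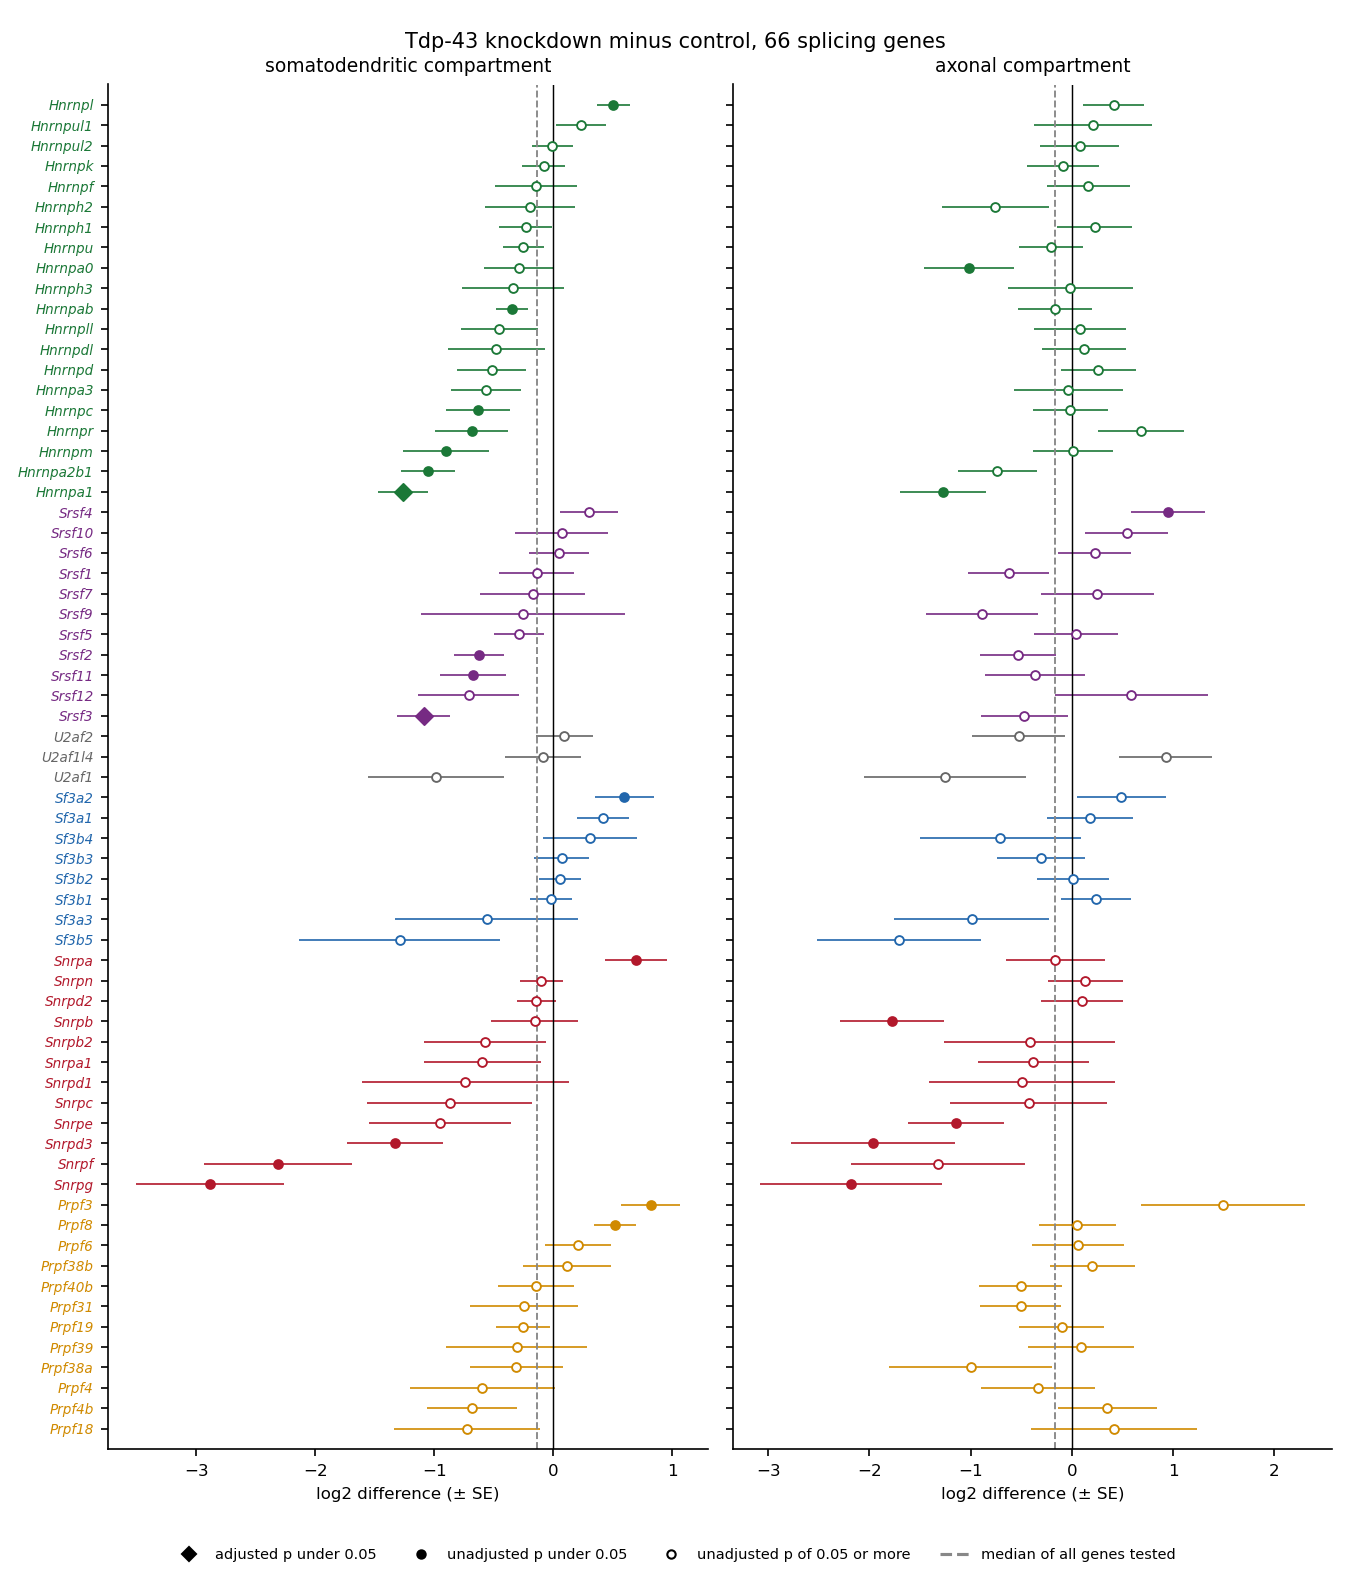
Each symbol is the log2 difference, knockdown minus control, of 1 of 66 member genes (vertical axis, coloured by family) with its SE, in the somatodendritic (left) and axonal (right) compartment; diamonds have an adjusted p under 0.05, filled circles an unadjusted p under 0.05, and the dashed line is the median of all genes tested. Hnrnpa1 and Srsf3 are the 2 diamonds, both on the left.

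The same comparison in axons gave no member with an adjusted p under 0.05 (limma), where 0.401% of all 13958 genes were called. At an unadjusted p under 0.05, 7 members were lower, where 6.46% of all genes were, and 1 was higher, where 2.14% of all genes were. The median member differed by -0.08 and the median of all genes by -0.17, and 37 of 67 members had a negative difference, as did 58.7% of all genes. In FPKM as deposited these medians were 0.39 and 0.23, so that the direction of the typical member depends on the scaling. Without the libraries of a relative depth under 0.5, and also without axonal control replicate 2 or replicate 3, 4 members had an unadjusted p under 0.05 in place of 8. There were 7, none of them past the adjusted threshold, when the library labelled axonal knockdown replicate 1 was left out. RNAs retained in the nucleus (Malat1, Neat1 and Meg3) summed to 580 to 1048 scaled FPKM (median 613) in axonal controls and to 920 to 2045 (median 1610) in axonal knockdown libraries, against 702 to 971 and 514 to 1041 in the somatodendritic groups. Their part in the axonal values was not tested.

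Hnrnpa1 was at 47.8, 23.6, 39.7 and 27.4 scaled FPKM in the axonal controls and at 9.30 to 24.2 (median 10.7) in the axonal knockdown libraries. The highest of these was the library labelled axonal knockdown replicate 1, and the other 5 lay below every control. The log2 difference was -1.28 ± 0.42 (SE; limma, adjusted p = 0.334, unadjusted p = 0.00852), and -1.44 without that library. Hnrnpa2b1 was at 79.4, 59.5, 67.2 and 52.4 in the controls and at 15.2 to 53.3 (median 42.2) in knockdown libraries, with a log2 difference of -0.73 ± 0.39 (SE; limma, adjusted p = 0.637). The axonal differences in FPKM as deposited were -0.78 for Hnrnpa1 and -0.22 for Hnrnpa2b1. Srsf3 was at 21.2 to 65.4 and 15.9 to 32.4 and the groups overlapped (log2 difference -0.47 ± 0.43 SE).

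Snrpb, an Sm protein whose own gene holds a decay-inducing exon, had the smallest unadjusted p among members in axons in the main fit. In FPKM as deposited Srsf4 was ahead of it, at an adjusted p of 0.154 against 0.378 (limma). Snrpb was at 23.8, 32.8, 37.1 and 32.5 scaled FPKM in the axonal controls and at 3.82 to 17.5 (median 8.54) in the knockdown libraries. The groups did not overlap, and the log2 difference was -1.78 ± 0.51 (SE; limma, adjusted p = 0.249, unadjusted p = 0.00323). It was -1.59 once the library labelled axonal knockdown replicate 1 had been dropped. In the knockdown libraries these levels stand for 0.1002 to 2.99 implied fragments. Snrpg, Snrpd3 and Snrpe were lower too, by 2.18, 1.97 and 1.14 on the log2 scale at unadjusted p of 0.028, 0.0272 and 0.0291, with Snrpg listed at 0 in 3 knockdown libraries and Snrpd3 in 1. Without the libraries of a relative depth under 0.5, the differences of Snrpg and Snrpd3 were -0.53 and -0.60, and without axonal knockdown replicate 5 alone that of Snrpd3 was -1.24. In FPKM as deposited the differences of Snrpg, Snrpd3 and Snrpe were -1.75, -1.48 and -0.64. The axonal knockdown levels of Snrpe stand for 0.00511 to 0.389 implied fragments. Hnrnpa0, an hnRNP made from a gene of 1 exon, was at 17.9 to 25.8 in controls and at 4.75 to 17.4 in knockdown libraries, with no overlap (log2 difference -1.01, unadjusted p = 0.0372). Its groups overlapped in FPKM as deposited, at 13.03 to 18.1 and 4.41 to 23.9, and the difference was -0.52.

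Srsf4 was the 1 member with a higher axonal value at an unadjusted p under 0.05. This SR protein was at 16.5, 16.9, 14.6 and 16.7 scaled FPKM in the axonal controls and at 23.3 to 47.0 (median 30.8) in the knockdown libraries. All 6 knockdown libraries were above all controls (log2 difference 0.95 ± 0.37 SE; limma, adjusted p = 0.457, unadjusted p = 0.0199). Leaving out the library labelled axonal knockdown replicate 1 gave 0.96, and FPKM as deposited gave 1.45. Of its 50-base stretches, 39.5% are shared with 1 other annotated gene, Gm12992, which overlaps it on the other strand. In all, the groups of 3 members did not overlap (Snrpb, Hnrnpa0 and Srsf4), or 4.48%, against 2.47% of all genes tested. Without scaling it was 4 (Snrpb, Srsf4, Sf3b1 and U2af1l4), or 5.97%, against 3.25%.

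**Figure D3:**
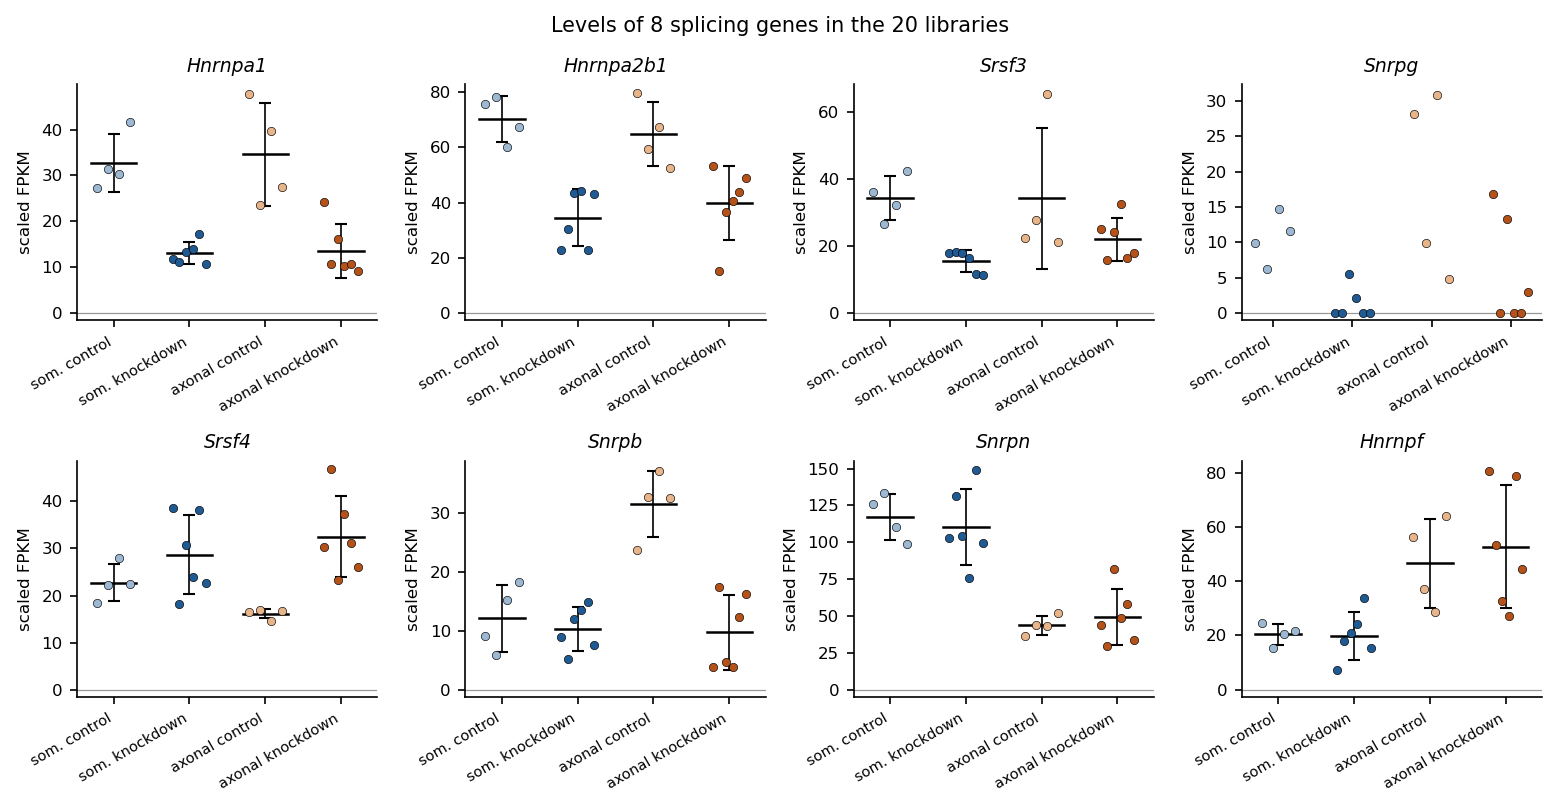
Points are scaled FPKM (linear axes) in each of the 20 libraries for 8 genes, with the 4 groups along the horizontal axis; black lines are the group mean and SD, left out for Snrpg, which is listed at 0 in 7 libraries. Hnrnpa1, Hnrnpa2b1 and Srsf3 are lower in all 6 somatodendritic knockdown libraries than in the 4 controls, and Snrpn is at 98.7 to 134 in somatodendritic and 36.3 to 51.8 in axonal controls.

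Whether the effect of the knockdown differs between compartments was tested as an interaction over all 20 libraries. No member passed at an adjusted p under 0.05, where 0.0711% of the 14062 genes tested did (10 genes). At an unadjusted p under 0.05, 1 member was higher, where 2.75% of all genes were, and 1 was lower, where 2.86% of all genes were. Hnrnpr, which binds mRNA in axons of motoneurons, had an interaction of 1.35 ± 0.51 (SE; limma, adjusted p = 0.838), as it was at 21.6 to 45.0 and 10.2 to 30.9 in the somatodendritic groups and at 7.40 to 29.0 and 22.7 to 38.5 in the axonal groups. For Snrpb the interaction was -1.66 ± 0.63. For Hnrnpa1, whose differences were -1.26 and -1.28, it was -0.05 ± 0.44. For Srsf3 it was 0.59 ± 0.46.

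A second question was how axons and cell bodies differ in their splicing gene transcripts. In control libraries Snrpn was lower in axons, and no other member passed at an adjusted p under 0.05. This is 1 of 67 members, or 1.49%, where 2.1% of all genes were called. At an unadjusted p under 0.05, 4 members were higher in axons, where 8.09% of all genes were, and 2 were lower, where 7.31% of all genes were. The median member was higher in axons by 0.17 while the median of all genes was at -0.03, and 46 of 67 members had a positive difference, including all 8 Sf3 genes, as did 48.3% of all genes. In FPKM as deposited, the medians were -0.38 for the members and -0.47 for all genes, so that the sign for the typical member rests on the scaling while its place above the median of all genes does not. The median of the Sf3 genes was 0.23 with scaling and -0.29 in FPKM as deposited.

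Snrpn (ENSMUSG00000000948, chr7:59974149-60005064, minus strand) encodes SmN, the form of the Sm B protein that neurons make, from an imprinted locus. It was at 126, 134, 111 and 98.7 scaled FPKM in the somatodendritic controls and at 36.3, 43.8, 43.2 and 51.8 in the axonal controls, with no overlap. The log2 difference, axonal minus somatodendritic, was -1.40 ± 0.29 (SE; limma, adjusted p = 0.012). Without axonal control replicate 1 the adjusted p was 0.0539, and without somatodendritic control replicate 2 it was 0.0556. Snrpn was also not called in controls with the replicate number as a block. In the knockdown libraries it was at 75.6 to 149 (median 104) and at 29.8 to 81.9 (median 46.3), a log2 difference of -1.19 ± 0.24 (SE; limma, adjusted p = 0.00645) that was called in each of the 20 fits that left out 1 library, and was at an adjusted p of 0.0633 without the libraries of a relative depth under 0.5. Its exons overlap Snurf, Snhg14 and 2 snoRNA genes on the same strand, whose fragments could be counted with it. The largest overlap, 589 exonic bases against 216 for Snurf, is with another protein-coding gene on that strand that is also annotated as Snrpn. A transcript of the gene row used here is annotated under a gene name other than Snrpn. These values may thus not stand for all Snrpn transcripts or for them alone, and the part of the overlapping genes was not tested. Neuron markers summed to lower values in axonal than in somatodendritic libraries, as given above, and their part in this result was not tested.

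Snrpb, which encodes the Sm B protein that SmN replaces in neurons, was on the other side in controls. Its levels of 23.8 to 37.1 scaled FPKM in axonal controls were above the 5.86 to 18.2 of somatodendritic controls, a log2 difference of 1.41 ± 0.49 (SE; limma, adjusted p = 0.142) that was 0.84 in FPKM as deposited, where the groups overlapped. In knockdown libraries it was at 5.30 to 14.97 and 3.82 to 17.5, and the difference was -0.25 ± 0.40. The axonal controls enter both this comparison and the axonal knockdown comparison, so that the values of Snrpb there are not independent. The same holds for Srsf4, which was at 18.4 to 27.9 in somatodendritic and 14.6 to 16.9 in axonal controls, with no overlap (log2 difference -0.45, unadjusted p = 0.153, and -1.004 in FPKM as deposited). Dividing cell markers summed to 135 to 268 in the same axonal controls against 46.2 to 64.6 in somatodendritic controls, and their part was not tested.

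Hnrnpf, an hnRNP that binds G-rich RNA, was higher in axons. It was at 24.4, 15.2, 20.6 and 21.8 scaled FPKM in the somatodendritic controls and at 56.4, 37.1, 28.6 and 64.2 in the axonal controls, with no overlap (log2 difference 1.09 ± 0.42 SE; limma, adjusted p = 0.193). In knockdown libraries it was at 7.21 to 33.8 (median 19.4) and at 27.2 to 80.6 (median 48.8), with 4 of 6 axonal libraries above all somatodendritic ones (log2 difference 1.38 ± 0.34 SE; limma, adjusted p = 0.0212). Without axonal knockdown replicate 1 the adjusted p was 0.0503, and without somatodendritic knockdown replicate 1 it was 0.0553. Hnrnpf was also not called with the replicate number as a block. Of the 50-base stretches of Hnrnpf, 61.9% occur in 11 other annotated genes. Its levels in somatodendritic knockdown libraries stand for 0.180 to 8.70 implied fragments. Without the libraries of a relative depth under 0.5 the adjusted p for Hnrnpf was 0.0541, in a fit of knockdown libraries alone 0.0855 and in FPKM as deposited 0.0547. The control difference of Hnrnpf was 0.52 in FPKM as deposited, where the control groups overlapped.

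In knockdown libraries 2 members were called between compartments, Hnrnpf and Snrpn, or 2.99%, where 5.35% of all genes were. Without the library labelled axonal knockdown replicate 1 or without somatodendritic knockdown replicate 1 the count was 1, without axonal knockdown replicate 5 it was 4, and without the libraries of a relative depth under 0.5 it was 0. At an unadjusted p under 0.05, 8 members were higher in axons, where 9.52% of all genes were, and 2 were lower, where 11.1% of all genes were. The higher ones were Hnrnpf, Hnrnpu, Hnrnpm, Hnrnpr, Srsf11, Prpf38b, Prpf4b and Snrpf, and the lower ones Snrpn and Hnrnpa0. Hnrnpu was at 45.3 to 54.9 scaled FPKM in somatodendritic controls and 71.0 to 75.9 in axonal controls, with no overlap (log2 difference 0.54, unadjusted p = 0.0431), and differed by 0.57 in knockdown libraries. In FPKM as deposited the control difference of Hnrnpu was -0.04 and the groups overlapped, so that its direction rests on the scaling. Srsf12, an SR-like protein that counters splicing, was at 10.6 to 20.7 in somatodendritic controls and at 2.24, 8.89, 8.15 and 0 in the axonal controls (log2 difference -2.01, unadjusted p = 0.00888), and the difference was -1.33 without axonal control replicate 4. The groups of 8 members did not overlap between compartments in controls, or 11.9%, against 15.7% of all genes, and those of none in knockdown libraries, against 2.46% of all genes. Without scaling these counts were 15, or 22.4%, against 21.8%, with 5 of the 8 among them, and 0 against 2.54%. The median member was higher in axons by 0.22 in knockdown libraries, where the median of all genes was -0.05. Without scaling these medians were 0.02 and -0.24.

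**Figure D4:**
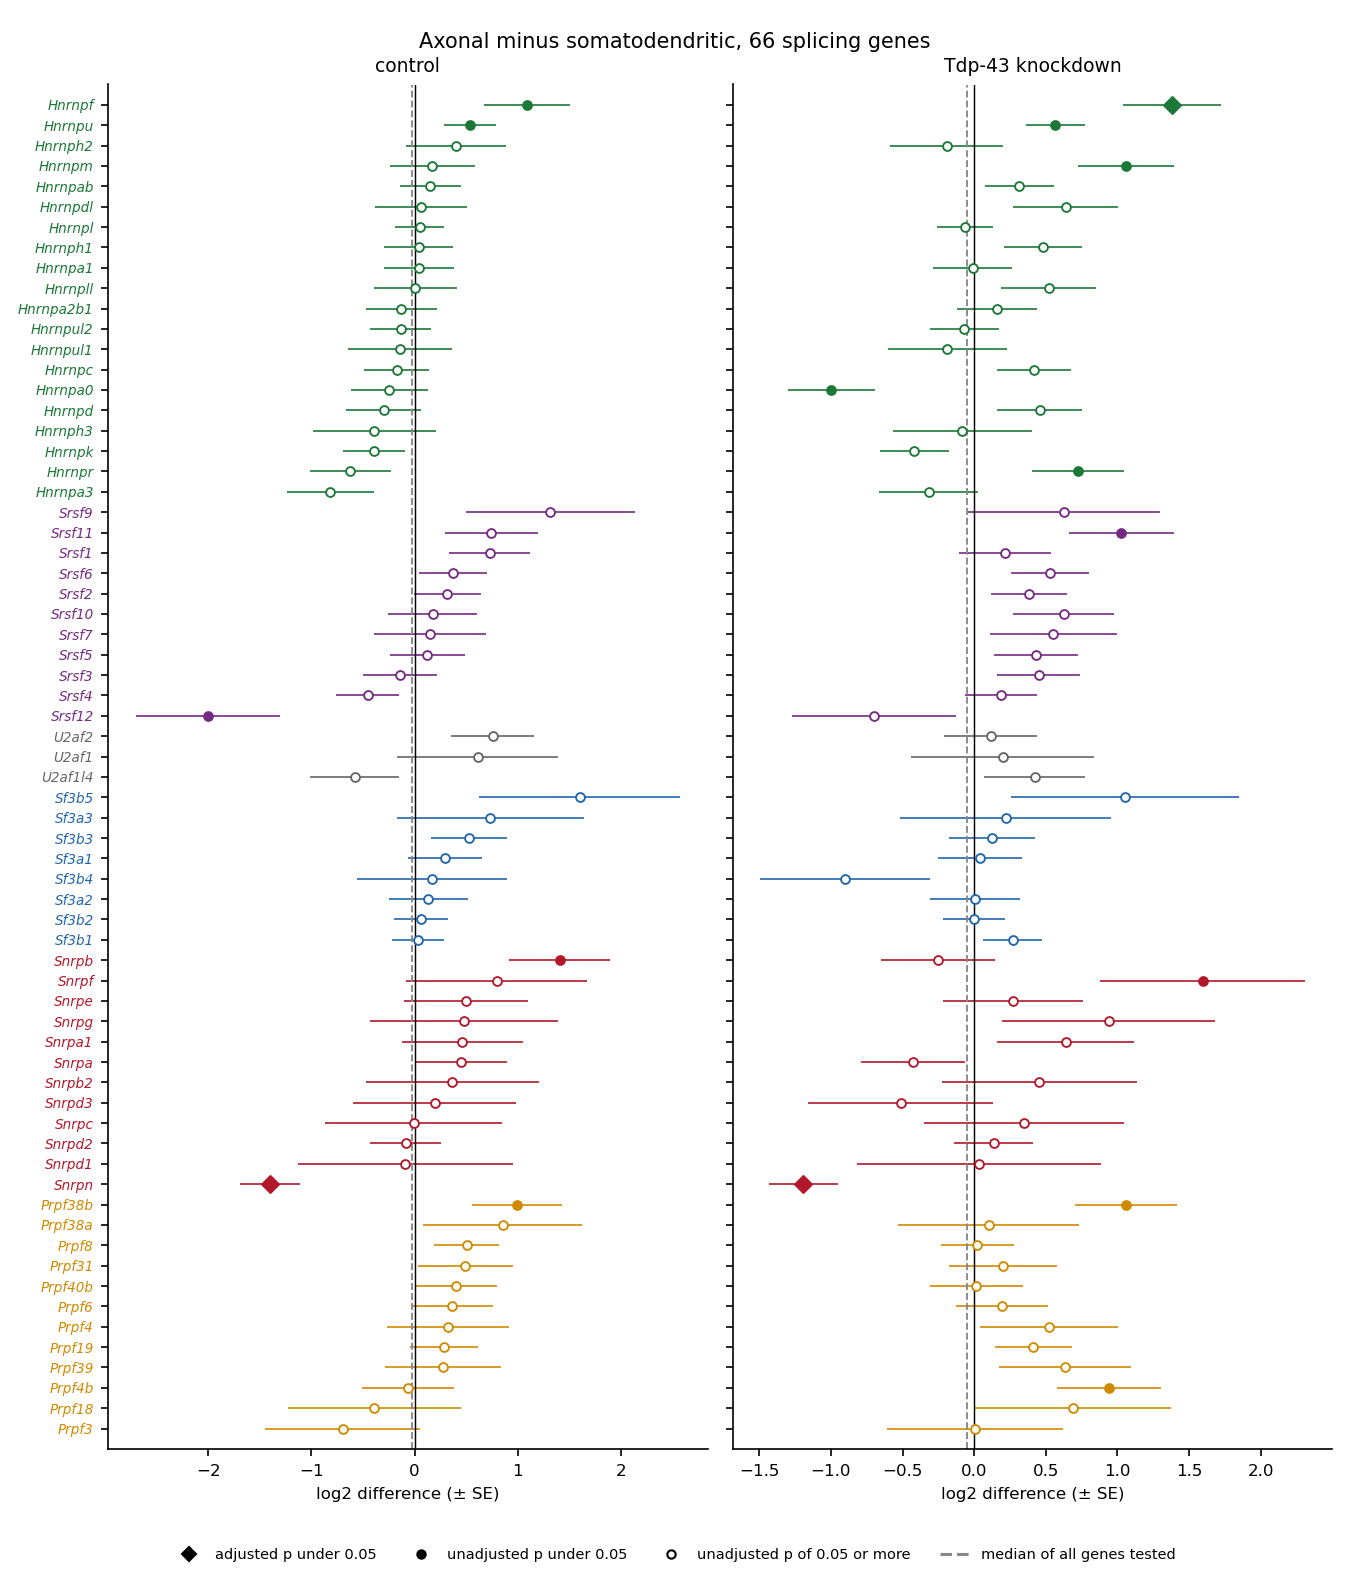
Each symbol is the log2 difference, axonal minus somatodendritic, of 1 of 66 member genes (vertical axis, coloured by family) with its SE, in control (left) and knockdown (right) libraries; symbols and the dashed line are as in the plot of knockdown differences. Snrpn is the lowest diamond in both panels, at -1.40 and -1.19, and Hnrnpf the diamond on the right side at 1.38.

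Differences after knockdown were lower for short members. The 6 members with under 2000 exonic bases had a median difference of -0.60 in cell bodies and -1.23 in axons, and those of at least 5000 bases (33 members) had medians of -0.25 and 0.05. All genes showed the same order. Those under 2000 bases had medians of -0.41 and -0.36, and those of at least 5000 bases had medians of -0.03 and -0.03. Snrp genes had a median of 2738 exonic bases and U2af genes of 2598, against 4655 for expressed protein-coding genes. After a correction of each library for exonic length, chosen after seeing the data, Hnrnpa1 (adjusted p = 0.0424) and Srsf3 (adjusted p = 0.0431) were still called in the somatodendritic compartment and Snrpg was at an adjusted p of 0.0863. Hnrnpa2b1 was at an adjusted p of 0.101.

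**Figure D5:**
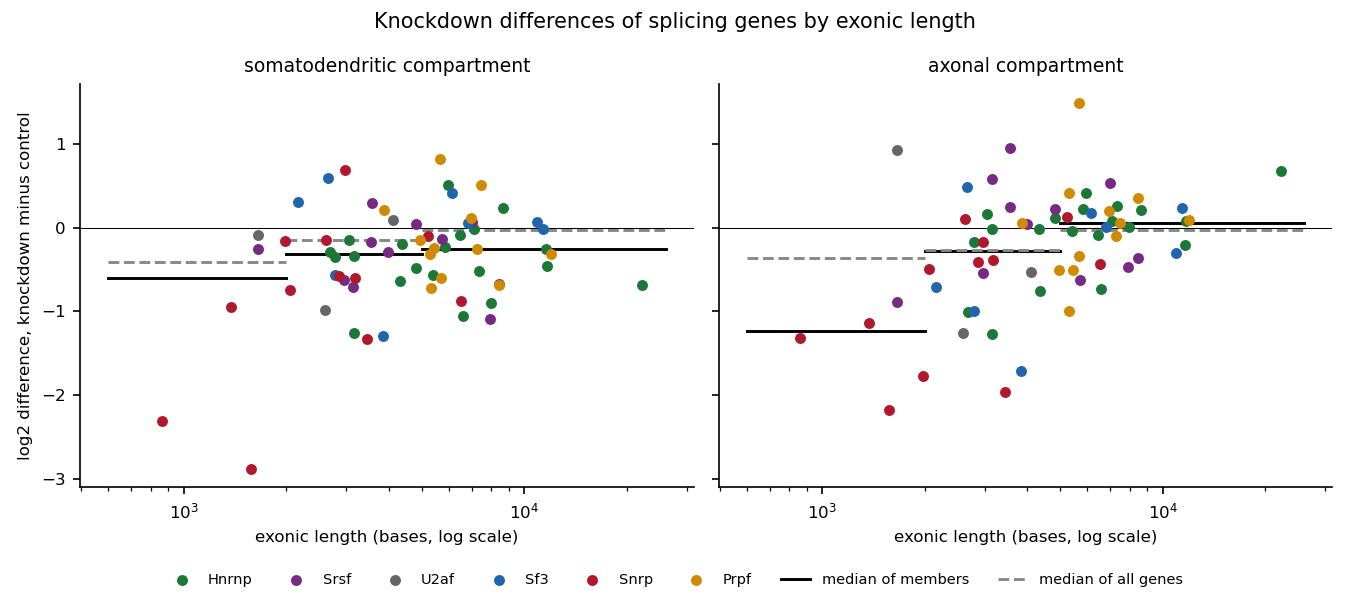
Each point is 1 of 66 member genes, by exonic length (horizontal log axis, bases) and log2 difference, knockdown minus control (vertical axis), in the somatodendritic (left) and axonal (right) compartment; black lines are medians of members and dashed grey lines medians of all genes under 2000, from 2000 to 5000 and of at least 5000 bases. The lowest points are Snrpg and Snrpf on the left, at -2.88 and -2.31.

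A transcript annotated for nonsense-mediated decay exists for 35 of the 67 members, or 52.2%, against 28.7% of 12110 expressed protein-coding genes, a difference that was not tested. By family it exists for 9 of 11 Srsf, 10 of 20 Hnrnp, 7 of 13 Prpf, 5 of 12 Snrp, 3 of 3 U2af and 1 of 8 Sf3 genes. A retained-intron transcript exists for 73.1% against 59.2%. The motif TGTGTGTG, the DNA letters of a UG repeat of the kind that Tdp-43 binds, occurs in a transcript of 31 members, or 46.3%, against 40.6%. Members with it had a median difference of -0.31 in cell bodies and 0.04 in axons, and members without it -0.25 and -0.38. The 7-base seed site of the shRNA guide (AGACAGT) occurs in 23 members, or 34.3%, against 40.2%. Hnrnpa1 lacks it, and Hnrnpa2b1 and Srsf3 hold it. Members with the site had a median somatodendritic difference of -0.34 and those without it -0.25, and 4 of 23 and 8 of 44 were lower at an unadjusted p under 0.05, where 6.76% of all protein-coding genes with the site and 8.76% of those without it were. In axons the medians were 0.05 with the site and -0.18 without it, and 0 of 23 and 7 of 44 were lower, where 3.94% and 6.05% of protein-coding genes were. A match is only a stretch of letters, and binding was not measured here.

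Promoter windows from RefSeq (GRCm38.p6) were found for 58 of the 67 members, 79 windows in all, each from 250 bases before to 50 after a start. The ETS core CCGGAA or its complement TTCCGG was in 45.6% of these windows and in 18.9% of 19358 windows of protein-coding genes. The GC box GGGCGG (or CCGCCC) was in 63.3% against 47.4%, CCAAT (or ATTGG) in 48.1% against 37.7%, the E box CACGTG in 13.9% against 7.997%, and TATAAA (or TTTATA) in 8.86% against 12.02%. The 200 bases before the start are printed for the genes that passed the adjusted threshold in knockdown (Hnrnpa1 and Srsf3) and in both compartment comparisons (Snrpn, the window nearest to its annotated start), on the strand of the gene, with those 5 motifs in capitals. Hnrnpa1 has 4 CCAAT boxes and 2 GC boxes, Srsf3 1 CCAAT box and 1 TATA motif, and Snrpn 1 ETS core.
Hnrnpa1, chr15:103240197-103240396, plus strand: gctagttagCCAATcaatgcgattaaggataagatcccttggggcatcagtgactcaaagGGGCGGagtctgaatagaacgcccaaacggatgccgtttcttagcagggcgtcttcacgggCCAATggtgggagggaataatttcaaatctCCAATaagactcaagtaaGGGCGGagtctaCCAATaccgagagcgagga
Srsf3, chr17:29032460-29032659, plus strand: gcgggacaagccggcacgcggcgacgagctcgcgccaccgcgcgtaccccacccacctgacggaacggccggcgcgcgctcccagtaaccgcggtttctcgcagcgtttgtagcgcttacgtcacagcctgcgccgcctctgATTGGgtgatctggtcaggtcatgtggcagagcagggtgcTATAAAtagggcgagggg
Snrpn, chr7:60005200-60005399, minus strand: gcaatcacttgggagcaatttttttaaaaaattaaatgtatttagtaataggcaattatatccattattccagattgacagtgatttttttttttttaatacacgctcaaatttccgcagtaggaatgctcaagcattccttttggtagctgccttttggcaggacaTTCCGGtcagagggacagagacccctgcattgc

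Splicing genes with other symbols were looked at in 5 lists. Of 25 LSm and other snRNP genes tested, 2 were higher and 1 was lower at an unadjusted p under 0.05 after knockdown in the somatodendritic compartment, of 15 SMN complex and assembly genes 1 and 2, of 25 helicases and catalytic step factors 2 and 0, of 12 kinases and importers of SR proteins 2 and 0, and of 52 other splicing regulators 5 and 6. Of all genes tested there, 4.59% were higher and 9.22% lower. Tardbp alone passed at an adjusted p under 0.05, with a log2 difference of -3.06 ± 0.56 (SE; limma, adjusted p = 0.0228). Next to it, Gemin6, of the SMN complex, differed by -1.94, Lsm1 by -1.28, and Wdr77, which acts in the methylation of Sm proteins, by -1.05 (adjusted p of 0.102, 0.248 and 0.0919). Gemin6 and Lsm1 are low genes, at 1.44 to 7.71 and 1.48 to 4.83 scaled FPKM in the somatodendritic controls. After knockdown they were at 0 to 1.70 and 0 to 1.31. In axons no gene of these lists passed, and the largest differences at an unadjusted p under 0.05 were -1.71 for Tardbp, -1.35 for Raly, -1.16 for Sfpq and 1.14 for Rbfox3. At an unadjusted p under 0.05, the axonal counts, higher and lower, were 1 and 0, 0 and 0, 0 and 0, 2 and 0, and 2 and 5 in the same order of lists, where 2.14% of all genes were higher and 6.46% lower.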

How the data were processed

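The values are FPKM, 1 per gene and library, which the authors computed with Cufflinks 2.2.1 on GRCm38 after a check of the reads with FastQC 0.10.1, per the labels' processing notes; for sequencing and mapping the paper points to earlier work. The deposited FPKM hold no counts. Relative depth and implied fragments were derived from the FPKM intervals that the files give, so that shallow values are the least precise. Values at or under 0.001 FPKM count as 0.

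A median-of-ratios factor scaled each library. For genes whose mean reached 1 FPKM, log2(FPKM + 1) was fitted with limma 3.58.1 (R 4.3.3), and p-values were adjusted after Benjamini and Hochberg across every gene in the fit. Knockdown was fitted within each compartment, and the compartments and the interaction over all 20 libraries, without a replicate block. Tables were made with Python 3.11.15, numpy 2.4.6 and pandas 2.3.3. Gene positions and transcripts are from GENCODE M21. The fits were also run on simulated data in which depth did not differ between libraries, so that unequal depth was not examined there.

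Genes named are Hnrnpa2b1, the 3 members of each family with the highest mean, members with an adjusted p under 0.05, and the 5 largest differences each way among those with an unadjusted p under 0.05; Hnrnpab, Hnrnpc, Prpf4, Prpf4b, Snrpe and Sf3b1 were named after their values were seen. The members and lists were chosen with earlier results of these data known. Alternatives were another scaling, pseudocounts of 0.1 and 5, other filters, array weights, a replicate block, other sets of libraries and leaving out each library. The values of 1 member are not reported here, and it is not drawn in the plots of single genes, though it is part of all counts and medians.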

Additional observations from a re-analysis of the deposited data

Results flagged for a closer look

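Among the 35 named members, 140 groups of libraries were examined, and in 9 of them (6.43%) 1 library lay far from the others of its group, where chance alone gives about 1 group in 20. In axonal controls, Srsf11 was at 159 scaled FPKM in replicate 4 against 34.2 to 43.6 in the others, Prpf3 was listed at 0 in replicate 4 against 23.6 to 27.7, and Srsf4 was at 14.6 in replicate 3 against 16.5 to 16.9. In axonal knockdown libraries, Hnrnpa2b1 was at 15.2 in replicate 2 against 36.5 to 53.3, Sf3a2 at 13.7 in replicate 2 against 38.6 to 68.1, and Srsf2 at 32.4 in replicate 5 against 70.1 to 106. In somatodendritic libraries, Sf3a1 was at 16.6 in control replicate 3 against 22.3 to 23.6, Prpf40b at 67.2 in knockdown replicate 6 against 17.6 to 24.0, and U2af1l4 at 8.08 in knockdown replicate 5 against 18.8 to 27.4. The values that stood apart rest on 0 to 18.1 implied fragments, with 0.371 for Srsf2 and 0.0296 for U2af1l4.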

How the results depend on the processing

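For knockdown in the somatodendritic compartment, 2 members had an adjusted p under 0.05, against 4 with quantile normalization, 4 with a pseudocount of 5, 5 with array weights (where 1.1%, 1.54% and 3.14% of all genes were called, against 0.974%), 0 with the replicate number as a block and 0 in a fit of all 20 libraries, where 9 in place of 17 had an unadjusted p under 0.05. For knockdown in axons the fit of all 20 libraries called 2 (Hnrnpa1 and Snrpb) in place of 0, with 1.68% of all genes in place of 0.401%, and 4 in place of 8 had an unadjusted p under 0.05 without the libraries of a relative depth under 0.5. Between compartments in controls, 2 in place of 1 were called in FPKM as deposited, 0 with the block and 2 in a fit of control libraries alone (4.12%, 0.853% and 6.9% of all genes, against 2.1%), and 10 in place of 6 had an unadjusted p under 0.05 in FPKM as deposited, with a pseudocount of 5, without the shallow libraries and in the fit of controls alone. In knockdown libraries 7 of the 49 members tested were called among genes of at least 1 FPKM in every library, where 16.6% of all genes were, in place of 2 of 67 with 5.35%; the count was 0 without the shallow libraries, 1 with the block and 1 in a fit of knockdown libraries alone. For the interaction, 7 in place of 2 had an unadjusted p under 0.05 in FPKM as deposited. The difference of Hnrnpu between compartments in controls reversed to -0.0397 in FPKM as deposited. Leaving out 1 library at a time gave 0 to 4 calls and 13 to 18 members with an unadjusted p under 0.05 for somatodendritic knockdown, 0 and 4 to 8 for axonal knockdown, 0 to 1 and 4 to 7 between compartments in controls, 1 to 4 and 8 to 14 in knockdown libraries, and 0 and 2 to 4 for the interaction. Family medians, knockdown minus control on the log2 scale, moved in FPKM as deposited to 0.53 for Hnrnp, 0.41 for Srsf, 0.43 for Sf3, 0.25 for Prpf and -0.33 for Snrp in axons, and to 0.29 for Sf3 in the somatodendritic compartment; the other 6 family differences moved by less than the SD between libraries. The correction for exonic length, chosen after seeing the data, moved none of the 10 counts of members past either threshold by over 1.5 times. Leaving out 1 library at a time, also chosen after seeing the data, moved no family difference by more than the SD between libraries. The correlation of deviations from group means between same-numbered libraries was weak, at -0.081 to 0.143 over 5606 genes. Between control and knockdown, the same number was the best match for axonal replicates 1, 3 and 4 and somatodendritic replicates 2 and 4. It was not for axonal replicate 2 and somatodendritic replicates 1 and 3. Whether same-numbered libraries were handled together was not tested. With the block, the adjusted p was 0.0756 for Hnrnpa1, 0.157 for Srsf3, 0.0524 for Snrpn in controls and 0.0533 for Hnrnpf in knockdown libraries. Apart from the named choices, the cause of these shifts was not tested. Several levels of Snrp genes stand for under 1 implied fragment. In the deepest library, somatodendritic control replicate 3, Snrpe stood for 0.668 implied fragments and Hnrnpa0 for 47.5. Their somatodendritic control means were alike, at 24.4 and 24.6 scaled FPKM. Implied fragments thus do not follow from level and depth alone, and the part of depth was not tested.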
